A study of Mus musculus with 12 samples.

Results

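In RNA bisulfite sequencing of mouse neural stem cells, 2124 of the 6462 cytosines called in the whole series (32.9%) lay on chromosomes 1 to 19 and X at positions that the deposited lists assigned to no annotated gene of their strand. These 2124 cytosines, called members here, were chosen by their own readout. A cytosine counted as called in a library at a coverage of at least 20 reads, with at least 6 unconverted reads and a level of at least 10%, the level being the share of reads showing C among those showing C or T, and a member had to be called in both replicates of at least 1 of the 6 conditions. Which members were called where, and how conditions shared them, is therefore described without a test. Over the whole lists, 0.336% of the 1924231 listed cytosines with that coverage in both replicates of a condition were called, and outside genes 16.2% of 13130 were. The lists omit positions without an unconverted read, and such positions are likelier at low coverage. Median coverage was lower outside genes than in genes in every library, so these shares do not have like bases.

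The cells came from the subventricular zone, the stem cell niche along the lateral ventricles, of male wild type C57BL/6 mice aged 6 to 8 weeks, and grew as a monolayer with epidermal growth factor and basic fibroblast growth factor. They were kept for 4 days in 1.5 μM (low, LF), 10 μM (medium, MF) or 80 μM (high, HF) folic acid, the vitamin that feeds the methyl groups used by methyltransferases. Poly(A) RNA was taken either from total RNA (LF, MF, HF) or from polysomes, the mRNA loaded with several ribosomes (pLF, pMF, pHF), with 2 replicates of each condition and 12 libraries in all. All RNA was treated with DNase and selected for poly(A) before bisulfite conversion, and the libraries kept the strand of the RNA.

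A library listed between 797260 and 2071190 cytosines with a summed coverage of 1250056192 to 3018859494 reads, and a list holds only positions with at least 10 reads and at least 1 unconverted read, so a position missing from a list was fully converted or had under 10 reads. Of the neural stem cell markers, Nes, Vim, Fabp7, Slc1a3 and Msi1 had listed cytosines in all 12 libraries, with 1251 to 2729 over the list per library, while Sox2, which lies inside the transcript Sox2ot, had none under its own name. Neuron markers summed to 15 to 583 listed cytosines with Rbfox3 at 0, oligodendrocyte markers to 0 to 17 with Mog and Mag at 0, and microglia markers to 46 to 224 with Aif1 and C1qa at 0. Of the neuron markers Map2 was listed in all 12 libraries, at 15 to 581 cytosines, and Syt1 and Snap25 had at most 2 and 1. Of the microglia markers Cx3cr1 was listed in all 12 libraries, at 46 to 224 cytosines, and Ptprc in pHF replicate 2 alone, at 41. The libraries labelled HF and replicate 2 of pHF stood apart. The libraries labelled HF held 6369 and 5182 called cytosines against 2150 to 2641 in LF and MF, but only 330 and 370 of them outside genes, and without these libraries there were 2059 members in 81 loci. Replicate 2 of pHF had 4.58% of its listed cytosines outside genes at a median coverage of 12 reads, against 0.95% to 1.43% at 43 to 64 reads in the other 11 libraries. Of its listed cytosines outside genes, 79.9% had a level of 90% or more (28474 of 35654), against 2.07% to 16.0% in each of the other 11, and 13.7% had a level under 5%, against 56.6% to 71.5%. Without it there were 2361 members in 115 loci, since pHF then called from 1 library.

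Bisulfite converts cytosine to uracil and leaves 5-methylcytosine as cytosine, so a methylated position is read as C. A cytosine left unconverted for any other reason, such as a stable structure or a DNA or RNA duplex, is read the same way. The study's methods treat a read with more than a few unconverted C as incompletely converted and remove it. In RNA, 5-methylcytosine is placed mainly by the NSUN family of enzymes and by DNMT2, and NSUN2 is known to favour a cytosine with a run of G soon after it. Several repeat families lie outside genes: the telomere repeat, whose C-rich strand is the template of the G-rich RNA called TERRA, microsatellites made of C and T on one strand, and the satellite DNA of the pericentromeres.

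The sequences that carry the results are shown 5′ to 3′ on the strand of the members (genome build GRCm38, which is mm10), with the members in capitals. The first 2 are blocks of C and T that lie across from coding exons of Cenpb (chr2:131178499-131178653, plus) and Anp32b (chr4:46469885-46469996, minus), shown because every C of them was a member. The third is a satellite block that was unconverted on both strands (chr2:98667091-98667216, plus).
Locus 48: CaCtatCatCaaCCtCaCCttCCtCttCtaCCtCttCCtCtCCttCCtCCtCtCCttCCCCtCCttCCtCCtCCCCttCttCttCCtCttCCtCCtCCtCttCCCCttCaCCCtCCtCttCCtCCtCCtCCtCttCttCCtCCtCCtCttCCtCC
Locus 67: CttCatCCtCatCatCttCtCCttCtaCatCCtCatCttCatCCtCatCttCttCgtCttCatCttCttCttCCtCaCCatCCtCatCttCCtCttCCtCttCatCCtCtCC
Locus 47: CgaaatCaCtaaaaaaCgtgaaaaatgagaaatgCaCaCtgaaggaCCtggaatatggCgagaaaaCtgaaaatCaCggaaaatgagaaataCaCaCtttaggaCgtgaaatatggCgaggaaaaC
The remaining sequences show a short CGG repeat just upstream of the GENCODE start of Eif4ebp2 (chr10:61452694-61452709, minus) and, with 14 bases on each side, the isolated members beyond the GENCODE ends of Vax1 (chr19:59165266-59165294, minus) and Slc25a39 (chr11:102402320-102402348, minus) and 1 of 3 isolated members in near-identical repeats (chr10:5724519-5724547, plus).
Locus 16: CggCggCggCggCggC
Locus 44: tttctgggactgttCtgggcggtggccca
Locus 23: tgaggatctgtaatCtgggtgtccctcgt
Locus 8: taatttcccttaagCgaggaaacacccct

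Most members sat in sequence with little G, and fewer loci than members did. Over the 20 bases around a member, 10 on each side, 91.0% had no G at all (1932 of 2124), compared with 8.64% of 3148 called cytosines in genes and 1.52% of 10438 background cytosines outside genes, the latter having a level under 5% at the same coverage. G directly followed the cytosine at 25 members, 1.18% (95% Wilson interval, 0.799 to 1.73), at 439 called cytosines in genes, 13.9%, and at 1205 background cytosines, 11.5%. Members of a block share their sequence, and with 1 member for each locus G followed in 6 of 98, 6.12% (2.84 to 12.7), 55 of 98 had no G in the 20 bases (56.1%), G made up 12.4% of the neighbouring bases, and 71.4% lay in the lower-case sequence described next. Of the 229 members called in the libraries labelled HF, 50.7% had no G in the 20 bases. C and T together made up 82.7% of the neighbouring bases of members and 50.6% of those of the background. RefSeq's genome marks low-complexity and repeat sequence in lower case, and 93.6% of the members fell in it (1988), against 18.8% of the background and 17.7% of the called cytosines in genes.

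**Figure D1:**
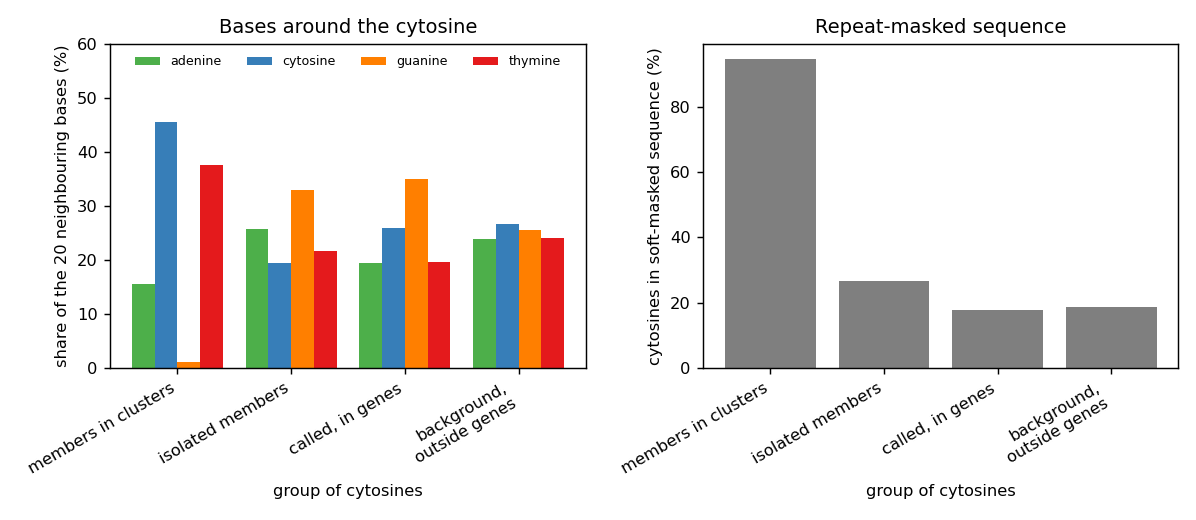
Left, the share of each base among the 20 neighbours of a cytosine (% of bases) for members in clusters, isolated members, called cytosines in genes and background cytosines outside genes. Right, the share of the same cytosines in soft-masked repeat sequence (%). G made up 1.16% of the neighbours of clustered members and 25.5% of those of the background.

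The members lay in dense blocks. Another member of the same strand stood within 25 bases of 2094 members (98.6%), compared with 26.5% of the called cytosines in genes. Chaining members no more than 1000 bases apart gave 98 loci: 27 held a single member, and 71, called blocks here, held the other 2097. The 52 loci of 10 or more members held 1995 members (93.9%) in spans of 37 to 344 bases (median, 106.5), and the 10 largest held 825 (38.8%). In 15 of these 52 loci every C of the span was a member. Of 1236 listed cytosines of the same strand within 200 bases outside these spans, counted in the libraries that called the locus, 965 had a level of 90% or more and 847 passed the level threshold but had under 20 reads. Inside the spans, 1110 listed values of the same strand in those libraries were at cytosines that are not members, of which 645 had a level under 10% and 271 had under 20 reads. The strands were close to balance, with 1087 members on the plus strand (51.2%) and 1037 on the minus strand, 49 loci on each, and 55.5% of the background on the plus strand. By condition the share on the plus strand was 61.9% of the members called in LF, 55.9% in MF, 21.8% in the libraries labelled HF (50 of 229), 49% in pLF, 46.7% in pMF and 44.3% in pHF.

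Most calls were all or nothing. Over all libraries, 85.9% of the 9188 called values of members had a level of 90% or more and 9.38% were under 50%, whereas 14.5% of 10172 called values in genes reached 90% and 75.8% were under 50%. The median level of called members was 100% in each of the 12 libraries. The replicate means reached 90% at 73.3% of the members called in LF, at 81.7% of those of MF, at 88.2% of those labelled HF, 90.2% in pLF, 92.8% in pMF and 93.4% in pHF. These levels rested on few reads, with a median coverage of 29 to 60 reads per library over called members, and at 20 reads a single read is worth 5 percentage points. Since the rule asks for a level of at least 10%, the low end of this distribution is set by it. The 3 members nearest above that threshold had a lower replicate of 10.1% (pLF, chr8:6906736), 10.4% (libraries labelled HF, chr13:21819230) and 10.5% (LF, chr12:112957762), and the 3 cytosines nearest below it 9.86% (pLF, chr8:6828276), 9.68% (pHF, chr8:6906810) and 9.40% (LF, chr2:150240727).

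By sequence, judged after the sequences had been seen, the blocks fell into 3 kinds. Blocks of C and T (at least 80% C and T and at most 3% G) were the most common, with 1383 members in 52 loci (65.1%). Repeats of CCCTAA held 558 members in 8 loci (26.3%). Another 11 blocks held 156 members (7.34%), and 60 of all 71 blocks, with 1797 members, had no G in their span. The motif CCCTAA was found in 8 of 98 loci on the strand of the members and in 0 on the other strand, and at 10.6% of 32851 RefSeq promoters of 300 bases on either strand. GGTTCGA, the core of the B box of RNA polymerase III promoters, was found in 0 loci, also with flanking bases searched, and at 0.910% of those promoters on either strand. These shares are not alike in basis. Of the loci 27 span 1 base, most blocks hold no G, and the CCCTAA blocks were classed by that motif.

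In the GENCODE annotation, 41 loci with 906 members lay across from a gene of the other strand, 22 of them from an intron, 8 from a coding exon, 7 from a noncoding exon and 4 from an untranslated exon. Another 18 loci (221 members) began within 5000 bases downstream of a gene end of their strand, 3 (78 members) within 5000 bases upstream of a gene start, and 36 (919 members) met none of these. RefSeq placed 18 of the 98 loci in a gene of their strand and 12 in an exon of their strand, 10 of these 12 holding a single member. Windows of 101 bases at the best covered member matched the genome once, at 95% identity or more over 80% of the window, for 66 loci (67.3%), and more than 1000 times for 7 loci with 431 members. No locus matched chromosome MT.

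**Figure D2:**
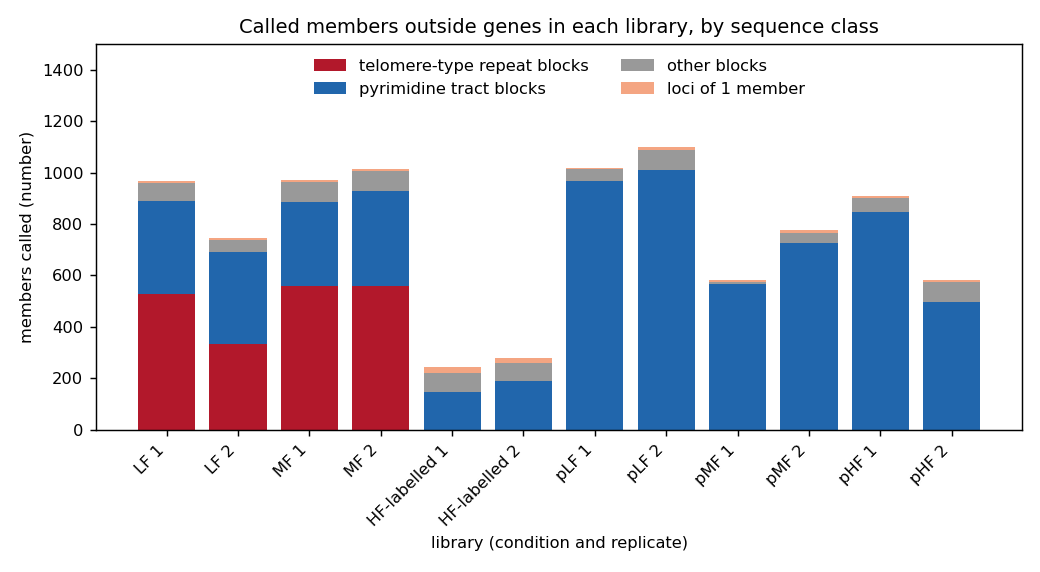
Number of members called in each of the 12 libraries, with colours for the sequence class of the block. The telomere-type CCCTAA blocks gave 333 to 558 members in the LF and MF libraries and 0 in the libraries labelled HF and the polysome libraries.

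The members split between the LF and MF libraries on one side and the polysome libraries on the other. Both replicates called 738 members in LF and 971 in MF. They called 229 when labelled HF, 1006 in pLF, 529 in pMF and 427 in pHF. LF and MF shared 694 members, 94.0% of those of LF and 71.5% of those of MF. The polysome conditions also shared most of theirs, since pLF held 507 of the 529 pMF members (95.8%) and 368 of the 427 pHF members (86.2%). By contrast, only 41 of the 1015 members called in LF or MF (4.04%) were among the 1085 called in a polysome condition (3.78%). The libraries labelled HF shared 138, 102 and 117 of their 229 members with pLF, pMF and pHF, and 10 and 9 with LF and MF. The labels do not say whether the libraries labelled HF were made or handled differently from LF and MF, or whether any label was exchanged. This was not tested and bears on every comparison with them. Of all members, 811 were called in 1 condition, 941 in 2, 294 in 3, 67 in 4, 9 in 5 and 2 in all 6.

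Many missing calls were at positions missing from the lists, as the 52 large loci show. Of 27 large loci called in polysome conditions only (774 members), no member was listed in any LF or MF library, at any level, and 2 had a member listed in a library labelled HF. Of 15 large loci called in LF or MF only (873 members), 3 had a listed member in a library labelled HF and 1 in a polysome library. The largest exception was the block across from an intron of Slc1a3, locus 35, described below. In bulk libraries, fewer molecules of an RNA and the lower depth of a library both leave a position unlisted and cannot be told apart from full conversion. The summed coverage was 2468773578 to 3018859494 reads in the LF and MF libraries and 1250056192 to 2365767225 in the polysome libraries. Why these positions were unlisted was not tested.

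**Figure D3:**
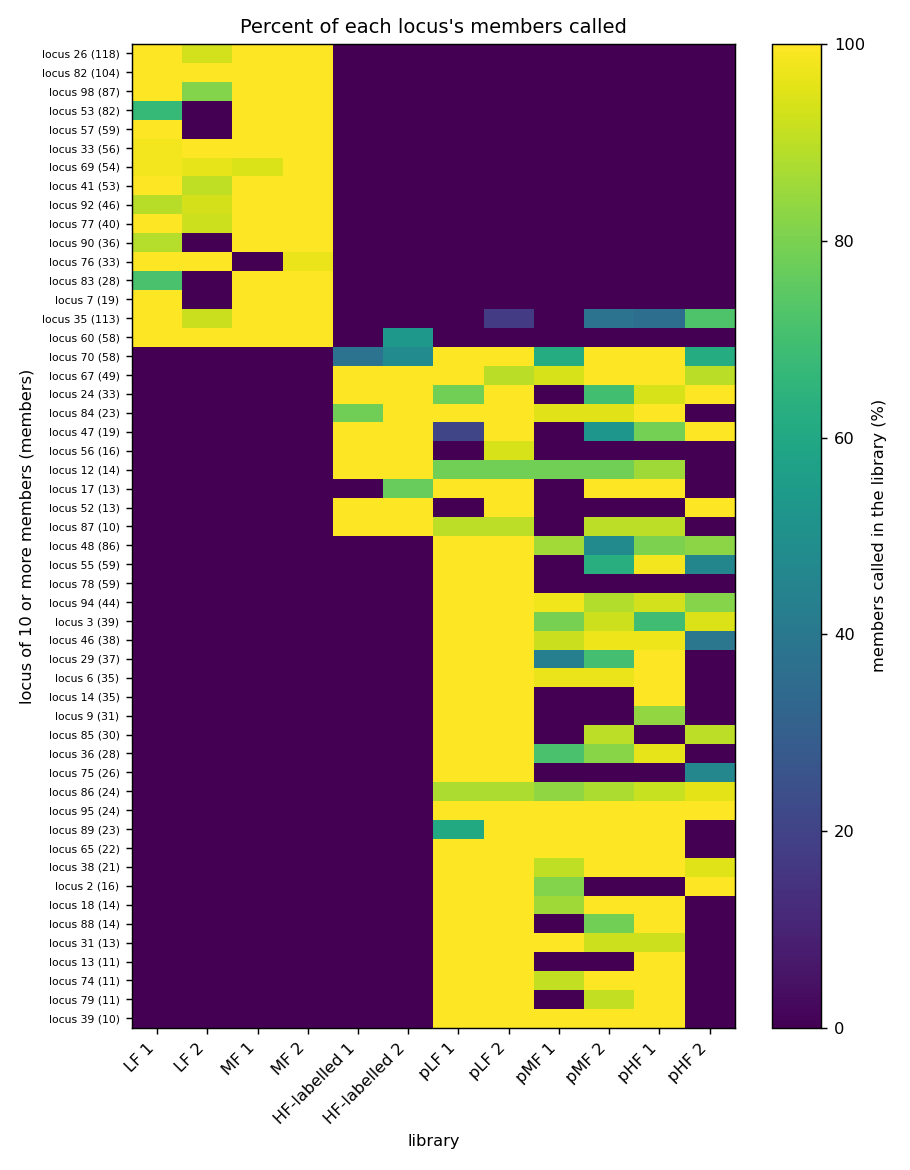
Percent of the members of each of the 52 loci of 10 or more members that were called in each library, with the number of members in parentheses. Loci called in LF and MF fill the upper left, and loci called in the polysome libraries, some of them also in both libraries labelled HF, fill the lower right.

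Telomere repeats end every chromosome, and copies also lie inside chromosomes. The 8 CCCTAA blocks were called in MF (558 members) and, for 4 blocks with 333 members, in both replicates of LF. Locus 26, the largest locus (chr12:120028725-120028959, minus strand, 7479 bases from Tmem196), had all of its 118 C as members. It was called at 118 positions in LF replicate 1, 110 for LF replicate 2 and 118 in each MF replicate, with a median level of 100% in each of these 4 libraries and median coverages of 64, 39, 59 and 77.5 reads. No member of it was listed in the other 8 libraries, and the same held for the other 7 CCCTAA blocks. Locus 82 (chr8:83756773-83756979, plus) was the best covered of them, with all 104 of its C called in the 4 LF and MF libraries at median coverages of 392, 216, 486 and 465 reads and a median level of 100%. Locus 98 (chrX:170881064-170881237, minus) was called at 87, 71, 87 and 87 of its 87 C. Loci 26 and 98 ended 63 and 62 bases before the last sequenced base of their chromosomes. Of the 8 blocks, 5 lay far from that base, at 9144199 to 60490355 bases.

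At locus 53, LF replicate 2 listed members below the coverage minimum. Locus 53 (chr2:121522526-121522869, minus, across from an intron of Wdr76) had 82 members called in each MF replicate, 55 in LF replicate 1 and 0 of 80 listed in LF replicate 2, where the median coverage was 15 reads. Loci 26, 82, 90 and 98 each matched the genome over 1000 times, and how their reads were assigned among the copies was not tested. Of the 8 blocks, 5 were on the minus strand.

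Blocks of C and T made up most polysome members. They supplied 958 of the 1006 pLF members, 516 of 529 in pMF and 369 of 427 in pHF, compared with 352 of 738 for LF and 329 of 971 for MF. The libraries labelled HF lay between these, with 136 of their 229. Some of them lay exactly across from exons, where codons for glutamate read as C and T on the other strand. Anp32b, Cenpb and Rangap1 all encode proteins with acidic stretches: Anp32b is a histone chaperone, Cenpb binds centromere DNA and Rangap1 drives nuclear transport.

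Locus 67, printed above, across from a coding exon of Anp32b, had all 49 of its C as members. They were called at 49 and 49 positions for the libraries labelled HF, 49 and 44 for pLF, 46 and 49 for pMF and 49 and 44 for pHF, with a median level of 100% in all 8 libraries. The median coverage of these members was 55 and 28 reads in the libraries labelled HF, 86 and 85 for pLF, 63 and 79 for pMF and 88 and 28 for pHF. The Anp32b strand, over the span and 200 bases on each side, had a median coverage of 18306 to 33354 reads at its listed cytosines in the same libraries, with a median level of 0.0547% to 0.0967%. A list holds only cytosines with an unconverted read, and 3 or 4 cytosines of the Anp32b strand were listed there in each library. The member strand thus stood at 0.0936% to 0.299% of the depth of the coding strand. In LF and MF the coding strand was read 11931 to 16144 times, yet no member was listed in 3 of these libraries and 24 were listed in MF replicate 2 at a median of 11.5 reads and 100%. Another 2 Anp32b blocks, loci 66 and 68, had 8 and 2 members, all with a median level of 100% where listed, and stood at 0.0720% to 0.308% of the depth of the coding strand where called.

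Locus 48, across from a coding exon of Cenpb, where the annotation also places Spef1, was called at all 86 of its C in both pLF libraries, at 74 and 41 for pMF and at 69 and 71 for pHF. The medians of the level were 100% in 5 of these libraries and 97.1% in pHF replicate 1, at median coverages of 49, 46.5, 29, 19, 26 and 24 reads. The Cenpb strand was read 712 to 1235 times there, so the member strand stood at 2.52% to 5.55% of it. In the libraries labelled HF, 17 and 30 members were listed at 100% with medians of 10 and 13 reads, and in LF and MF none was listed at a Cenpb depth of 328 to 1214 reads. Locus 36, across from Rangap1 (chr15:81710480-81710537, plus), had all 28 C as members, called at 28 and 28 for pLF, 20 and 23 for pMF and 27 and 0 for pHF. In the 5 libraries that called the block, its members stood at 1.71% to 5.70% of the depth of Rangap1.

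Processed pseudogenes, the genomic copies of spliced mRNAs, carried the same kind of block. Locus 70 (chr4:143390160-143390381, minus) lies across from Anp32b-ps1 and had 58 members, 22 and 28 of them called in the libraries labelled HF, 58 and 58 for pLF, 36 and 58 for pMF and 58 and 36 for pHF, all at a median level of 100%. In the 3 libraries that called the block and listed 1 cytosine of the gene strand, the members stood at 165% to 229% of the depth of that cytosine. Locus 46 lies across from Gm13577 and had 38 members, with 38 and 38 called in pLF, 35 and 37 for pMF and 37 and 15 for pHF, and none listed in LF, MF or the libraries labelled HF. Yet the strand of Gm13577 was read 1004 to 1224 times in LF and MF, at 0.0966% to 0.131%, and 167 to 661.5 times in the 5 polysome libraries that listed it. Loci 6 (Gm5527, 35 members), 65 (Gm12504, 22 members) and 84 (Gm2676, 23 members) were also called in polysome libraries, locus 84 in those labelled HF too, and none of their members was listed in LF or MF. RefSeq places locus 65 in an exon of the pseudogene Ptma-ps2 on the strand of the members. Loci 6 and 46 are 97.5% identical over 276 bases and are not independent. The windows of loci 6, 46 and 84 matched the genome 10, 12 and 9 times, and how their reads were assigned among the copies was not tested.

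Other C and T blocks lay in introns or between genes. Locus 35 (chr15:8669515-8669856, plus, across from an intron of Slc1a3, a glutamate transporter of astrocytes and neural stem cells) had 113 of its 128 C as members and was the large locus called in LF or MF and in a polysome condition. It was called at 113, 104, 113 and 113 positions in the LF and MF libraries, with medians of the level of 98.6%, 95.3%, 100% and 98.4% at 67, 39, 54 and 57 reads. In the polysome libraries it was called at 0 and 20 positions for pLF, 0 and 43 for pMF and 41 and 82 for pHF, at median coverages of 11 to 26 reads and medians of 83.3% to 100%. A library labelled HF listed 55 of its members at a median of 11 reads and 100%. The median level was thus 83.3% or more in every library that listed the block, while the coverage differed between conditions.

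Locus 55 (chr3:107242429-107242594, minus, 2722 bases upstream of Prok1) was called at 59 and 59 positions for pLF, 0 and 37 for pMF and 58 and 27 for pHF, at medians of 96% to 100%. Locus 78 (chr7:105598244-105598432, plus, across from an intron of Hpx) was called at all 59 members in both pLF libraries at 32 and 33 reads. It was listed at 57, 58, 59 and 52 members in the pMF and pHF libraries, with medians of 92.3% to 100% at 13 to 17 reads. At both blocks, the libraries with listed members and 0 calls had a median coverage of 13 to 17 reads.

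Some large blocks called in LF and MF had intermediate levels. In loci 33, 69 and 92 the median called level was 34.9% to 51.7%. Locus 33 (chr14:122497102-122497272, plus, 56 members) had medians of 32.1%, 32.7%, 37.8% and 36.7% in the LF and MF libraries, locus 69 (chr4:120915728-120915856, minus, 54 members) 33%, 35.0%, 36.6% and 40.8%, and locus 92 (chrX:8354774-8354899, plus, 46 members) 45.7%, 55.2%, 51.9% and 44.8%.

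**Figure D4:**
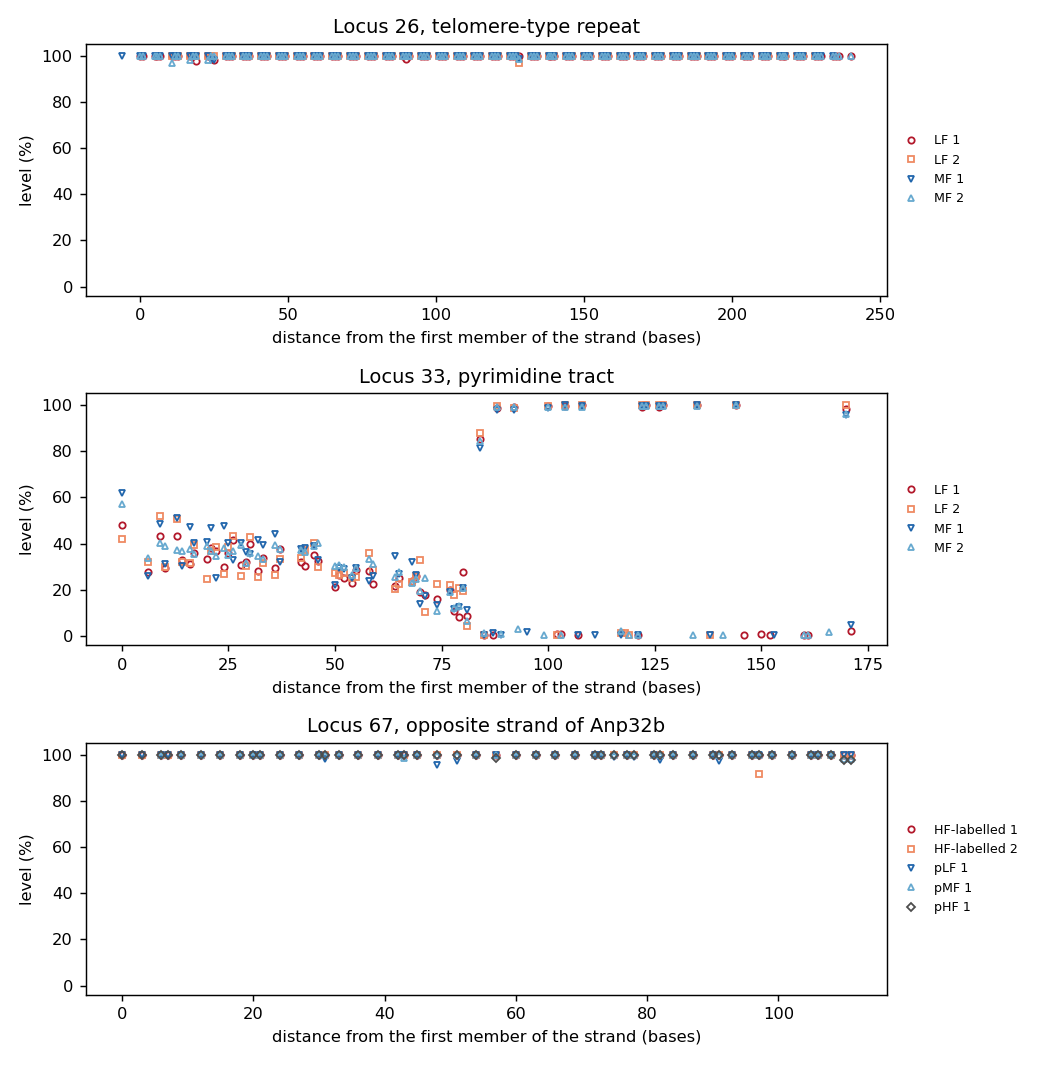
Level (%) of each listed cytosine with at least 20 reads against its distance from the first member of the strand (bases), with 1 symbol for each library shown. Locus 26 and locus 67 stayed close to 100% along their length, while locus 33, with medians over its members of 32.1% to 37.8% in the LF and MF libraries, passed along its length from intermediate levels to positions close to 0 or to 100%.

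Of 4 satellite blocks, loci 47 and 24 had unconverted cytosines of both strands listed within the span. Around locus 52, counting 200 bases on each side, pHF replicate 2 listed 24 cytosines of the other strand at a median level of 100% and 20 reads. Loci 47, 24, 52 and 34, with 19, 33, 13 and 8 members, are related at 95.4% to 96.3% identity, and their sequence is of the kind known as the mouse major satellite, the repeat of the pericentromeres. Locus 47, across from the gene model Gm10800, was called at all 19 members in both libraries labelled HF, with medians of 100% and 97.1% at 50 and 70 reads. In the polysome libraries it was called at 4 and 19 members in pLF, 0 and 10 for pMF and 15 and 19 for pHF. On the other strand of the same span, 28 or 29 cytosines were listed in each of the 7 libraries that called it, at medians of 98.5% to 100%. Locus 24 (chr12:3109908-3110039, minus) was called at all 33 members in the libraries labelled HF and had 9 and 16 cytosines of the other strand listed there, all at 90% or more, as were the 16 listed in pHF replicate 2, while none was listed in the other 4 libraries that called it. In LF and MF, 3 libraries listed 1 member of locus 47 each, at 1.12%, 3.33% and 0.917% with 89, 63 and 109 reads. Of all 71 blocks, 60 had no G in their span, so the other strand held no cytosine there that could be listed. A listed cytosine of the other strand within the span, in a library that called the block, was found in 4 blocks. In 2 of these, loci 6 and 67, it was at 0.0596% to 0.256%.

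The short block locus 16 lies in a G-rich sequence. Its 6 members are the C of a CGG repeat (chr10:61452694-61452709, minus) that ends 33 bases upstream of the GENCODE start of Eif4ebp2, which encodes a repressor of cap-dependent translation. RefSeq places the repeat within the gene Eif4ebp2 on the same strand, in none of its exons. The third C of the repeat from the 5′ end, chr10:61452703, stood at 60.4% and 59.6% for LF, 64.5% and 69.4% for MF, 52.7% and 77.3% for pLF, 69.4% and 51.1% for pMF and 41.5% and 82.3% for pHF. In the libraries labelled HF it was at 8.00% and 5.71%, below every other library. The last C, chr10:61452694, was lower, at 20.8% and 24.8% for LF, 30.5% and 25.8% for MF and 14.1% to 24.7% in the polysome libraries, against 8.47% and 2.27% for the libraries labelled HF.

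The 30 isolated members, with no other member within 25 bases, differed from the blocks in sequence. G directly followed 5 of them (16.7%, Wilson interval 7.34 to 33.6), 8 (26.7%) were in soft-masked sequence and G made up 33% of their neighbours. A run of GGG from the second base after the cytosine, counted after the sequences had been seen, stood at 6 of the 30 (20.0%, 9.51 to 37.3), at 0 of the 2094 clustered members, at 4.00% of the called cytosines in genes and at 2.62% of the background. By position, 13 were downstream of a gene end, 11 across from a gene and 6 neither. Of the 30, 14 were called in both replicates of no condition but the libraries labelled HF, and 7 of these were listed in no other library.

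**Figure D5:**
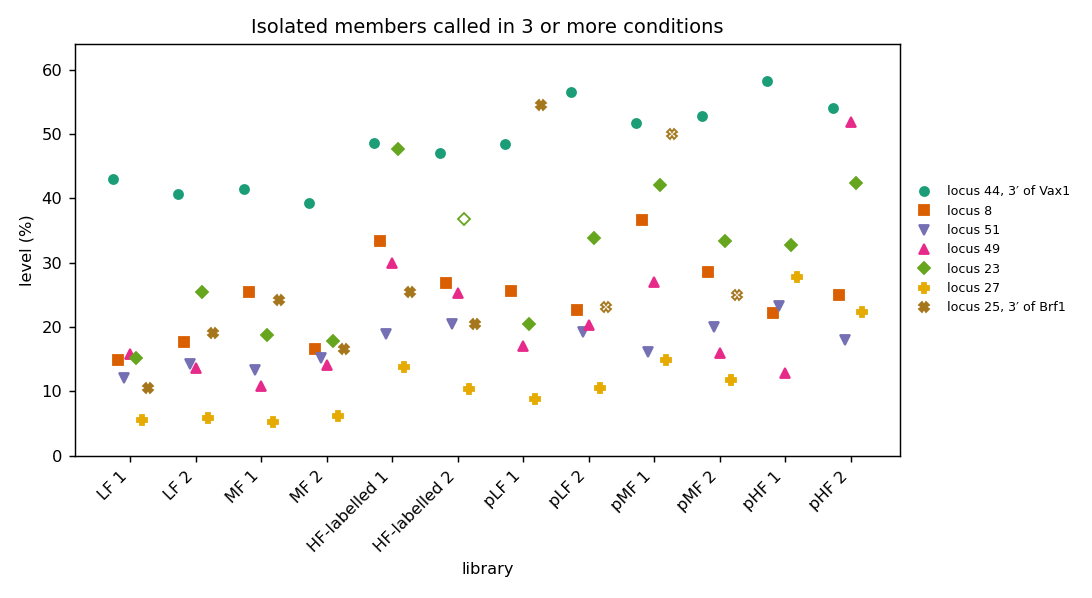
Level (%) of the 7 isolated members called in 3 or more conditions, in each of the 12 libraries; open symbols mark a coverage under 20 reads. The member 3′ of Vax1 lay between 39.2% and 58.3%, above the other 6 in 11 of 12 libraries.

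The best covered isolated member, locus 44 (chr19:59165280, minus), lies 907 bases past the GENCODE end of Vax1, in a RefSeq exon of that gene, which encodes a homeobox factor of the ventral forebrain. It was called in all 12 libraries, at 1347 to 1966 reads. Its level was 43.0% and 40.7% for LF, 41.5% and 39.2% for MF, 48.6% and 47.1% for the libraries labelled HF, 48.5% and 56.5% for pLF, 51.7% and 52.8% for pMF and 58.3% and 54.1% for pHF. All 6 polysome values and both values labelled HF lay above all 4 values of LF and MF, and the library with the fewest reads, pMF replicate 1, had a 95% Wilson interval of 49% to 54.3%. Locus 23 (chr11:102402334, minus), 651 bases past the end of Slc25a39, a mitochondrial glutathione carrier, and across from an untranslated exon of Rundc3a, was followed by TGGG like the Vax1 member, as the sequences above show. It stood at 15.2% and 25.5% for LF, 18.8% and 17.9% for MF, 20.5% and 33.9% for pLF, 42.1% and 33.3% for pMF, and 32.8% and 42.4% for pHF, with 47.6% and 36.8% at only 21 and 19 reads in the libraries labelled HF.

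Loci 8, 27 and 49 (chr10:5724533, chr13:21819230 and chr2:16022715) lie in near-identical repeats, at 99.2% to 99.5% identity and with 38 to 50 matches in the genome, and all have G after the cytosine. Locus 8, called in all 6 conditions, stood at 15% and 17.7% for LF, 25.5% and 16.7% for MF, 33.3% and 26.8% for the libraries labelled HF, 25.7% and 22.7% for pLF, 36.6% and 28.6% for pMF and 22.2% and 25% for pHF. Locus 27 was between 5.33% and 6.24% for LF and MF and between 8.77% and 27.8% in the other 8 libraries, and locus 49 between 10.8% and 15.8% for LF and MF and between 12.8% and 51.9% elsewhere. Since the copies share almost all bases, reads of one may have been assigned to another, and the 3 members are not independent. Locus 51 (chr2:30283903, minus, across from an intron of Gm28038) matched the genome 9491 times and stood at 12.1% to 15.2% in LF and MF and at 16.1% to 23.2% in the other libraries that listed it.

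The remaining isolated members named by rank were called in fewer conditions. Locus 25 (chr12:112957762, minus), 2323 bases past the GENCODE end of Brf1 and in a RefSeq exon of that gene, a subunit of the RNA polymerase III initiation factor, stood at 10.5% and 19.1% for LF, 24.2% and 16.7% for MF and 25.4% and 20.4% for the libraries labelled HF. Its pLF and pMF values, 54.5%, 23.1% and 25%, rested on 22, 13 and 12 reads, with 9 of 18 reads unconverted in pMF replicate 1. Locus 58 held 2 members in a GAA repeat called in LF and MF only, chr4:38985913 at 48.2%, 41.9%, 47.9% and 41.5% and chr4:38986168 at 89.5%, 96.2%, 96.1% and 93.8%. At chr4:38985913, LF replicate 1 had 40 unconverted reads at a coverage of 152, and its many reads with neither C nor T do not enter the level. The last member named by rank, chr14:122497272, is the distal C of locus 33, at 95.8% to 100% in LF and MF.

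The design asks whether folate changes the level in total RNA and in polysome RNA, and whether polysome RNA differs from total RNA at each dose. Each of 7 pairs of conditions was tested at the cytosines of the whole lists that were called in either condition and had at least 20 reads in all 4 libraries, by Fisher's exact test, two-sided, of the pooled reads with Benjamini-Hochberg adjustment over all sites tested, and limma on log2 odds as the test that uses the spread between replicates. Being called in 1 of the conditions was part of the choice of members, so their counts are set beside the share of all tested sites called different. The comparisons share libraries, and because most blocks were covered in 1 RNA fraction only, few members could be compared between fractions. The replicates were separate samples, and Fisher's exact test on pooled reads leaves out the spread between them. With the pseudocount of 0.5, the log2 odds of a member without a converted read rise with its coverage. At such members a limma result, adjusted or not, can therefore reflect coverage as well as level.

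Between LF and MF, 3 of 713 members tested passed, while 0.760% of all 1842 sites did. All 3 were higher in MF and lay in the intermediate C and T blocks, and 524 of the 713 were above 90% in both conditions. The member chr4:120915844 of locus 69 was at 30.8% and 36.0% for LF and at 58.5% and 61.5% for MF, a difference in pooled level of -26.9 points (Fisher's exact test, Benjamini-Hochberg adjusted p = 0.0291, limma adjusted p = 0.467). In locus 33, chr14:122497126 was at 30.0% and 26.8% for LF against 47.8% and 38.3% for MF, and chr14:122497138 at 29.5% and 26.4% against 44.2% and 39.5% (Fisher's exact test, adjusted p = 0.0224 for each, limma 0.574 and 0.572). By limma 0 members passed, as did 0 of all 1842 sites, with 50 members at an unadjusted p under 0.05. Fewer members passed Fisher's exact test without LF replicate 1, LF replicate 2 or MF replicate 1.

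Against MF, the libraries labelled HF could be compared at 19 members only, of which 11 passed, 6 higher and 5 lower, where 94.3% of all 1138 sites passed. The 5 lower ones were all in the CGG block of locus 16. At chr10:61452700 the libraries labelled HF stood at 5.71% and 5.26% and MF at 67.2% and 71.7%, a difference of -63.9 points (Fisher's exact test, adjusted p = 8.64e-24, limma 0.000566). At chr10:61452703, chr10:61452697 and chr10:61452706 the differences were -60.2, -55.2 and -54.2 points. The largest gain was chr10:42053529, in a RefSeq exon of the pseudogene Tdg-ps2, at 35.8% and 32.3% for the libraries labelled HF and 0.683% and 0.261% for MF (Fisher's exact test, adjusted p = 9.11e-52, limma 0.000630). That cytosine was at 0.683% or less in all 6 other libraries that listed it. Its window of 101 bases matched the genome 5 times. It also closely matched a transcript of the protein-coding gene Tdg over 101 bases in the same orientation. How reads were assigned among these copies was not tested, which bears on every comparison at this cytosine. By limma, 9 of the 19 members passed beside 1034 of the 1138 sites.

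Within polysome RNA few members differed. Between pLF and pMF, 3 of 515 members passed, all higher in pLF, beside 9.68% of all 1074 sites, and 476 of the 515 were above 90% in both. The 1 whose replicates did not overlap was chr13:98217181, at 100% and 100% for pLF against 81.0% and 97.4% for pMF (Fisher's exact test, adjusted p = 0.0139, limma 0.213), and there were 0 without pMF replicate 1 and 5 without either pLF replicate. Between pHF and pMF, 4 of 290 passed, 2 in each direction, beside 9.10% of all 703 sites. Of the 3 whose replicates did not overlap, chr10:39116870 differed most, at 83.5% and 16.0% for pHF against 98.0% and 89.8% for pMF (Fisher's exact test, adjusted p = 5.54e-06, limma 0.955), so the pHF replicates lay further apart than the pooled levels of the conditions, which differed by -21.0 points. By limma 0 members passed in either comparison, as did 0 of all 1074 and 703 sites, with 75 and 3 members at an unadjusted p under 0.05. Between pHF and pMF, more members passed without pHF replicate 1 or pMF replicate 1, each of which left 1 library in a condition.

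Between polysome and total RNA at the lower doses, all members that passed were isolated ones. At 1.5 μM, 1 of 10 members passed beside 65.0% of all 480 sites, the Vax1 member, at 48.5% and 56.5% for pLF against 43.0% and 40.7% for LF, a difference of 10.7 points (Fisher's exact test, adjusted p = 7.08e-20, limma 0.180). More members had the coverage, and more passed, without pLF replicate 1, pLF replicate 2 or LF replicate 1, each of which left 1 library in a condition. At 10 μM, 5 of 13 passed, all higher in pMF, beside 53.6% of all 403 sites. They were the Slc25a39 member (19.3 points, Fisher's exact test, adjusted p = 0.00312, limma 0.0356), chr3:89209300 across from a coding exon of Mtx1 (17.6 points, 0.000181, limma 0.0376), locus 8 (12.4 points, 0.0192, limma 0.157), the Vax1 member (12 points, 1.19e-19, limma 0.113) and locus 27 (7.72 points, 0.000455, limma 0.0340). More passed without pMF replicate 1, which left 1 library of pMF. The Vax1 member was thus higher in polysome RNA at both doses by Fisher's exact test and did not pass limma at either. By limma, 0 and 3 members passed at these doses, beside 218 of the 480 and 108 of the 403 sites.

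At 80 μM, pHF and the libraries labelled HF shared 126 tested members, 113 of them above 90% in both, and 11 passed, 10 higher in pHF, beside 65.3% of all 649 sites. The gains again included the CGG block, where chr10:61452703 stood at 41.5% and 82.3% for pHF against 8.00% and 5.71% (56.8 points, Fisher's exact test, adjusted p = 9.60e-14, limma 0.0206). The single loss was chr10:42053529, at 0.326% and 0.0683% for pHF against 35.8% and 32.3% (-34.1 points, adjusted p = 9.64e-86 by Fisher's exact test, limma 0.00182). By limma 22 of the 126 members passed beside 353 of the 649 sites, a count open to the coverage effect given above. Both results rest on the libraries labelled HF, in which these 2 loci stood apart from all other libraries that listed them, and without pHF replicate 2 or pHF replicate 1 there were 7 and 18.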

How the data were processed

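Poly(A) RNA from 12 libraries (6 conditions with 2 replicates each) was bisulfite converted and sequenced. Per the study's methods, the authors trimmed reads with fastp, aligned them to mm10 with meRanGh, kept unique alignments and called cytosines with meRanCall, and the study's source code adds genes with meRanAnnotate. The deposited lists give, for each cytosine, read counts (coverage, unconverted reads and mismatches) and the deposited level as a fraction, and the authors' later filters on signal, FDR and structure are not applied in them. The study's methods first remove reads with more than a few unconverted C. The paper does not say at which step the lists were made, and no such filter was run here. In locus 26 all 118 C of a span of 235 bases were members, at a median called level of 100%. A read lying in such a span holds more than a few unconverted C, so the lists hold reads that this step, as described, would remove. The lists omit cytosines under 10 reads or without an unconverted read.

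From these counts, levels were recomputed and shown as percentages, and members were found as the opening of the report states. The members and the gene and sequence lists were chosen with earlier results of these data known, and the sequence classes and the search for GGG were made after the sequences were seen. Named are the 10 loci with the most members, the 10 isolated members called in the most conditions (ties by summed coverage), up to 5 members for each comparison whose replicates do not overlap, and the 3 members or cytosines nearest the level threshold on each side. Of the loci the rule names, 2 are not reported here. Loci and blocks named beyond these were chosen after their values were seen.

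Sequence came from the RefSeq copy of GRCm38 and positions from GENCODE and RefSeq. Windows of 101 bases were aligned with blastn 2.17.0. Groups follow the sample labels. The 7 comparisons used two-sided Fisher's exact tests on pooled reads with Benjamini-Hochberg adjustment, with limma 3.58.1 (R 4.3.3) on log2 odds (pseudocount of 0.5), a Cochran-Mantel-Haenszel test with the replicate number as block, a coverage of 50 and the omission of each replicate as alternatives. Python 3.11.15, pandas 2.3.3 and scipy 1.17.1 were used, and the tests were tried on simulated data. Wilson intervals cover counting error only, and reads carry no molecular identifiers.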

Additional observations from a re-analysis of the deposited data

Results flagged for a closer look

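At 3 members the difference between conditions ran in opposite directions in 2 settings, every replicate of one condition lying on one side of the other condition in each setting. The difference between the settings was not tested. LF minus MF reversed between total and polysome RNA at 1 of 14 members covered, and the high-dose contrast with MF at 2 of 13. Polysome minus total RNA reversed between LF and MF at 0 of 14, and between HF-labelled and MF at 2 of 13. With 2 libraries in each condition, such reversals also arise by chance. At chr10:61452694, in the CGG repeat of locus 16, the mean level in LF minus that in MF was -5.34 points in total RNA and 4.39 points in polysome RNA, and polysome minus total RNA was 10.5 points at the dose of the libraries labelled HF and -9.49 points in MF. At chr10:5724533, the libraries labelled HF minus MF gave 9.01 points and pHF minus pMF -8.98 points, and polysome minus total RNA gave -6.48 points for HF-labelled and 11.5 points for MF. At chr3:89209300, across from a coding exon of Mtx1, the same folate contrast gave 9.41 points in total and -13.6 points in polysome RNA. The contrasts with the libraries labelled HF rest on libraries that stood apart.

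Chromosome Y, outside the comparisons above, held 66 cytosines outside genes called in both replicates of LF and of MF, and 0 in the other 4 conditions. Of these, 62 were all the C of a span of 123 bases with 19 copies of CCCTAA and 0 G.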

How the results depend on the processing

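The named members gave 23 differences, some members being named in more than 1 comparison. Of 150 values of these under the alternatives, 116 kept their side of the threshold and 34 lost it, and 13 of the 23 passed limma. None changed sign, but these members were named because their replicates do not overlap, so leaving out a replicate could not change it. The block and the coverage minimum left the pooled difference as it was. Alternatives in which a member was no longer tested are not counted. The median level of members was 100% under every alternative run. A coverage of at least 50 left 892 members in 46 loci, 1.79% with G next, 56.7% on the plus strand and 39.5% in 2 or more conditions. Without the libraries labelled HF 99.2% of members were in clusters, with a window of 10 bases 97.9%, and with 1 member for each locus G followed 6.12%. Leaving out 1 library gave 2141 to 3475 members, 95.8% to 98.6% in clusters, 1.06% to 2.53% with G next, 103 to 213 loci and 40.6% to 66.2% in 2 or more conditions; the most members and loci came without pHF replicate 1, and there were 173 loci without pLF replicate 1 and 159 without HF replicate 2, since a condition was then called from 1 library.

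Members differing at a coverage of 50 numbered 6 for libraries labelled HF versus MF, 2 for pHF versus pMF, 3 for pMF versus MF and 2 for pHF versus libraries labelled HF. By limma there were 0 for LF versus MF, pLF versus pMF, pHF versus pMF and pLF versus LF, 3 for pMF versus MF and 22 for pHF versus libraries labelled HF. Leaving out 1 library gave 0 to 3 for LF versus MF, 11 to 15 for libraries labelled HF versus MF, 0 to 5 for pLF versus pMF, 6 to 10 for pHF versus pMF, 1 to 10 for pLF versus LF, 4 to 11 for pMF versus MF and 7 to 18 for pHF versus libraries labelled HF. The cause was not tested beyond the smaller number of libraries.

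With the replicate number as a block the counts were 3, 11, 3, 4, 1, 5 and 13 in the order of the report, and all 23 named differences passed. The named differences had been chosen by Fisher's exact test on the same reads. For each comparison, the difference between the replicates of one condition was correlated over sites with that of the other condition. These correlations of differences, not of levels, were -0.234 to 0.107. They do not settle whether same-numbered libraries were paired. Crossing the numbers for pHF versus pMF, chosen after seeing the data, gave 4.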
